A study of Mus musculus with 9 samples.

Results

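The mouse genes that encode collagen chains were followed through the first 40 h after partial hepatectomy, with and without an inhibitor of the phosphatase SHP2. They were chosen by name: every protein-coding gene of the deposited table whose symbol is Col, a number, a and a number. This found 44 of the 43346 genes listed, of which 11 encode fibrillar chains, 6 encode the type IV chains of basement membranes and 27 encode other types. RNA-Seq of whole liver gave 9 libraries in 3 groups of 3. The baseline group was the liver resected at surgery (0 h) from vehicle-treated mice. The vehicle group was the liver remnant 40 h after 70% hepatectomy in mice given saline, and the NSC group was the remnant at 40 h in mice given NSC (NSC87877), a small molecule inhibitor of SHP2, at 7.5 mg/kg i.p. 2 times per day. The study states that NSC inhibits the phosphatase SHP1 as well, so effects through SHP1 and SHP2 cannot be told apart here. The mice are labelled C57/BL6 (C57BL/6J in the study's methods) and 12 weeks old, and no engineered allele is named for them. The sample records place the first dose 12 h before surgery and the study's methods place it 1 day before. Both remnant groups were set against the same 3 baseline libraries, because liver resected from mice given NSC was not analysed here. The resected tissue was the median and left lateral lobes and the remnant was the rest of the liver, so time after surgery and lobe cannot be told apart.

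Collagens are trimeric proteins of the extracellular matrix. Fibrillar chains such as those of types I, III and V build the striated fibrils of connective tissue, and type IV chains build the sheet of basement membranes. Other types bind fibril surfaces (the fibril-associated collagens, or FACIT), form beaded microfilaments (type VI), span the cell membrane, or carry the domain released as endostatin (type XVIII). In liver, hepatic stellate cells, portal fibroblasts and the myofibroblasts derived from them are the main source of fibrillar collagen, and type XVIII collagen is also made by hepatocytes. A fibrillar chain is translated as a procollagen chain that carries propeptides. It needs prolyl and lysyl hydroxylases, a dedicated chaperone, propeptide proteases and crosslinking enzymes before it becomes part of a stable fibril.

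The start regions of 6 chains are shown because these chains carry the main contrasts: 4 that rose after hepatectomy in vehicle-treated mice (*Col4a1*, *Col4a2*, *Col1a2* and *Col3a1*) and 2 that fell (*Col27a1* and *Col5a3*). Each window holds 250 bases before and 50 bases after a RefSeq transcript start in GRCm38.p6, and is written 5′ to 3′ on the strand of the gene. Capitals mark CCAAT and TATAAA, searched on both strands, so that ATTGG is CCAAT on the other strand. The windows lie at chr8:11312777-11313076 (minus strand, *Col4a1*), chr8:11312555-11312854 (plus strand, *Col4a2*), chr6:4505368-4505667 (plus strand, *Col1a2*), chr1:45311288-45311587 (plus strand, *Col3a1*), chr4:63215162-63215461 (plus strand, *Col27a1*) and chr9:20815018-20815317 (minus strand, *Col5a3*).
Col4a1: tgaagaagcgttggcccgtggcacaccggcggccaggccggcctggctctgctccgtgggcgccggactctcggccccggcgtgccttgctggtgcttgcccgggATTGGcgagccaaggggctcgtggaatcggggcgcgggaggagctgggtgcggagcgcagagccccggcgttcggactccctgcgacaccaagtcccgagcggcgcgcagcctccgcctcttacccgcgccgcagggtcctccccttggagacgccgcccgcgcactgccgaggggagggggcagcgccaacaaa
Col4a2: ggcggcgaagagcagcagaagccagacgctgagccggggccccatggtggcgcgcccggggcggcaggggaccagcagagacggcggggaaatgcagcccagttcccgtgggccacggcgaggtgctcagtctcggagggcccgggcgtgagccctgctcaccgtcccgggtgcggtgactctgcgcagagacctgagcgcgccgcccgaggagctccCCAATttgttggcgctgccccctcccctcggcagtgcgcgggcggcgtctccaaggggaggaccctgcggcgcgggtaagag
Col1a2: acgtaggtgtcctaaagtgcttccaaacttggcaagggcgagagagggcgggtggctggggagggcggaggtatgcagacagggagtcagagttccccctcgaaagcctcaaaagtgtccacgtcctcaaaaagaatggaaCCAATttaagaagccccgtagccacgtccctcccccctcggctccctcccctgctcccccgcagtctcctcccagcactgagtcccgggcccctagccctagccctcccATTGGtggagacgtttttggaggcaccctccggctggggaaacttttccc
Col3a1: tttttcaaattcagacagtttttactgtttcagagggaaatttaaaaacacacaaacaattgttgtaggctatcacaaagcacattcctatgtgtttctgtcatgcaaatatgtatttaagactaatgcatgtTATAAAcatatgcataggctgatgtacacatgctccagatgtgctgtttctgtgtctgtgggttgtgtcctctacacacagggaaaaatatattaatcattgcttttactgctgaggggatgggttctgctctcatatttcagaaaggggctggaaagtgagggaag
Col27a1: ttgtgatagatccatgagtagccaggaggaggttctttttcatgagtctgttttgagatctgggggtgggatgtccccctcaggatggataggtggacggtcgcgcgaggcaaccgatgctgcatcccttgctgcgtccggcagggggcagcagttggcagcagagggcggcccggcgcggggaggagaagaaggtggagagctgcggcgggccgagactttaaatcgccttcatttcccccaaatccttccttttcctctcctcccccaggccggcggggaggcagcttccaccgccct
Col5a3: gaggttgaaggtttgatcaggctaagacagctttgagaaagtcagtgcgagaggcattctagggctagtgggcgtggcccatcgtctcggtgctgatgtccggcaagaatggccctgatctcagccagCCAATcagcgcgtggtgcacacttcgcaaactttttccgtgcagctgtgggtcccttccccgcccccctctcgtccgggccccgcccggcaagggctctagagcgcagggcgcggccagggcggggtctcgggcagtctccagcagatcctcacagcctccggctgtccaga
*Col4a1* and *Col4a2* are transcribed in opposite directions from adjoining starts, and their windows share 78 bases (chr8:11312777-11312854). CCAAT was found in the windows of *Col4a1*, *Col4a2*, *Col1a2* and *Col5a3*, TATAAA in that of *Col3a1*, and neither in that of *Col27a1*. No CCAAT match in these 6 windows overlaps a TATAAA match. Of the 44 collagen genes, 35 have a RefSeq window. A collagen gene with more than 1 window, such as *Col18a1*, counts when any of its windows holds the letters. The shares over all windows count each window, so the bases of these shares differ. CCAAT is in the windows of 13 of these 35 (37.1%) and of 37.4% of all 32851 windows. TATAAA is in 5 of the 35 (14.3%) and in 13.6% of all windows. The letters GGGCGG, on either strand, are in 22 of the 35 (62.9%) and in 35.7% of all windows. These matches describe letters in a window, and binding was not measured.

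The libraries held 23997363 to 42887589 reads assigned to genes, and no pair of libraries of a group agreed within sampling noise (chi-square per gene 22.86 to 139.55). Levels are given as CPM, which are counts divided by the TMM-scaled library size and set to the same total of reads in each library. Hepatocyte genes led by *Alb* and *Apoa1* summed to between 94988 and 131033 CPM in every library, which fits the labelled tissue. Whether a baseline specimen and a remnant came from the same mouse is not stated, and p-values measure the spread between the libraries of a group. A gene was called changed at a Benjamini-Hochberg adjusted p under 0.05 over all 15024 tested genes (edgeR quasi-likelihood test, 1 fit of 9 libraries). Among the collagen genes, 31 had enough reads to be tested. The other 13 (*Col2a1*, *Col6a4*, *Col9a1*, *Col9a2*, *Col9a3*, *Col10a1*, *Col11a1*, *Col17a1*, *Col19a1*, *Col22a1*, *Col23a1*, *Col26a1* and *Col28a1*) had at most 0.474 CPM and 15 reads in any library, and 5 of these had no read in any library. An untested gene is one not measurable at this depth. NSC replicate 1 stood apart from the other NSC libraries in much of what follows, and values of the chains that it moved most are also given without it.

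**Figure D1:**
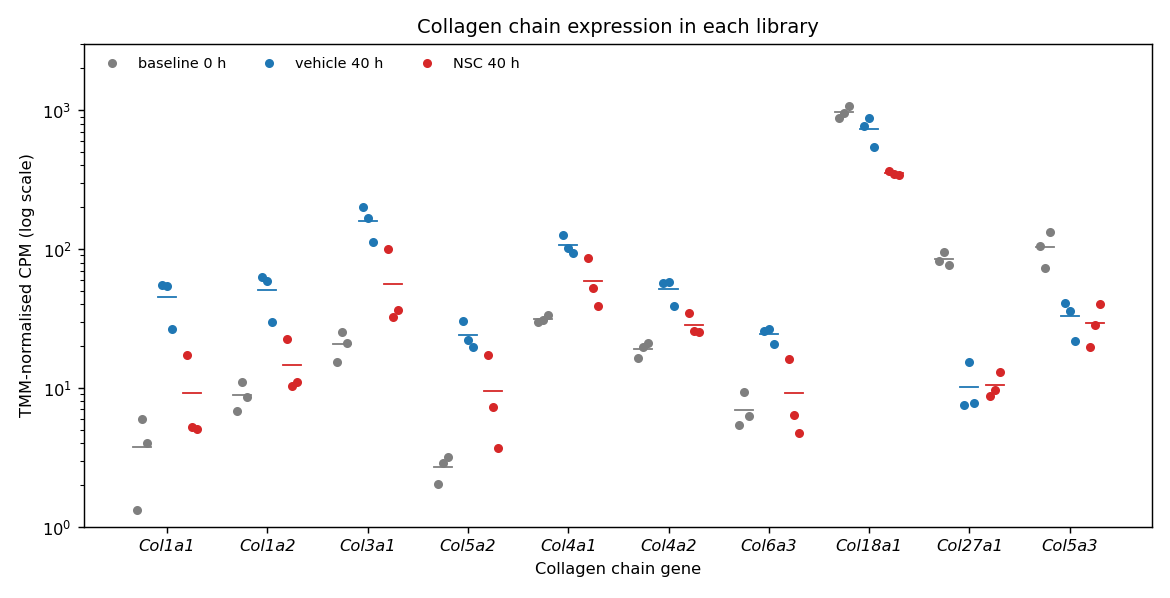
TMM-normalised CPM (vertical axis, log scale) of 10 collagen chain genes (horizontal axis) in the 3 baseline (grey), 3 vehicle (blue) and 3 NSC (red) libraries, points within a group ordered by replicate number and bars at the group mean. Vehicle libraries of *Col1a1* lie at 26.5 to 55.2 CPM against 1.33 to 5.95 CPM at baseline, NSC replicate 1 lies above NSC replicates 2 and 3 in the first 7 genes, and *Col27a1* lies below baseline in both remnant groups.

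At 40 h after hepatectomy, the remnants of vehicle-treated mice held more transcript of 5 fibrillar chains, the type IV chains *Col4a1* and *Col4a2*, 5 type VI chains and *Col12a1*. Of the 31 tested collagen genes, 13 were called higher than baseline (12.7% of all tested genes were) and 3 were called lower (11.0% of all tested genes). The median log2 fold change was 1.11 over the tested collagen genes and 0.01 over all tested genes. *Col1a1* rose most, 12.0-fold, and *Col27a1* fell most, 8.24-fold. In bulk tissue a change in the number of cells of a type cannot be told apart from a change in transcript per cell. Of the 13 calls, 9 were made in each of the 9 fits that left out 1 library. Their number fell to 9 when baseline replicate 1 was omitted (7.96% of all tested genes) and reached 14 when NSC replicate 1 was (15.8%). A further demand for a log2 fold change beyond 1.5 left 10 higher (5.03% of all tested genes) and 2 lower (2.19%). The 3 vehicle libraries lay above all baseline libraries in 16 of the 31 genes (24.2% of all tested genes) and below them in 4 (22.0%).

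Type I, III and V chains were the fibrillar genes that rose. *Col1a1* (ENSMUSG00000001506, chr11:94936224-94953042), the α1 chain of type I collagen, was at 1.33, 5.95 and 3.99 CPM at baseline and at 55.2, 54.1 and 26.5 CPM with vehicle. The lowest vehicle library was thus above the highest baseline library, and the log2 fold change was 3.59 (standard error 0.72, adjusted p = 0.0110). Its partner *Col1a2* (ENSMUSG00000029661, chr6:4504814-4541543) had 6.86, 11.1 and 8.64 CPM at baseline and 63.4, 59.1 and 29.9 CPM with vehicle. The groups did not overlap, and the rise was 5.73-fold (log2 fold change 2.52, standard error 0.39, adjusted p = 0.00208). *Col3a1*, the only chain of type III collagen and the most abundant fibrillar transcript of these remnants per length, went from 15.4, 25.3 and 21.1 CPM to 201, 168 and 112 CPM. That was a 7.79-fold rise (log2 fold change 2.96, standard error 0.48, adjusted p = 0.00347). *Col3a1* and *Col5a2*, which encodes a chain of the fibril-initiating type V collagen, are neighbours on chromosome 1, where their ends lie 24615 bases apart. *Col5a2* went from 2.05, 2.90 and 3.17 CPM to 30.3, 22.2 and 19.8 CPM (log2 fold change 3.15, standard error 0.53, adjusted p = 0.00391). *Col5a1*, the other main type V chain, went from 6.57, 6.78 and 7.99 CPM to 18.3, 17.2 and 10.7 CPM, a smaller rise (1.11, standard error 0.29, adjusted p = 0.0156). Its call was lost without baseline replicate 1 (1.06, adjusted p = 0.0602), vehicle replicate 1 (0.97, adjusted p = 0.0617) or vehicle replicate 2 (1.03, adjusted p = 0.0534).

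A pair of fibrillar chains moved the other way. *Col27a1* (ENSMUSG00000045672, chr4:63214004-63334991), a fibrillar chain known from developing cartilage, was at 81.7, 94.6 and 77.3 CPM at baseline and at 7.56, 15.3 and 7.83 CPM with vehicle. No vehicle library came near a baseline library, and the log2 fold change was -3.04 (standard error 0.28, adjusted p = 6.69e-05). *Col5a3* (ENSMUSG00000004098, chr9:20770050-20815067), the third type V chain, had 106, 73.4 and 133 CPM at baseline and 40.6, 35.8 and 21.9 CPM with vehicle (log2 fold change -1.66, standard error 0.32, adjusted p = 0.00492). The type V chains therefore split, with 2 higher and 1 lower. The cartilage chain *Col11a2* had 1.11, 0.641 and 0.495 CPM at baseline and 0.901, 1.55 and 0.775 CPM with vehicle, which overlapped (0.53, standard error 0.42, adjusted p = 0.394). *Col24a1* stayed under 1 CPM in every library (log2 fold change -0.94, adjusted p = 0.352). In all, 5 of 9 tested fibrillar genes were called higher and 2 lower, with a median log2 fold change of 1.11. This median depends on which genes are tested and was 2.53 with at least 10 counts in each library and 1.82 in a fit of the baseline and vehicle libraries alone.

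Among type IV chains, the ubiquitous pair *Col4a1* and *Col4a2* rose together. *Col4a1* (ENSMUSG00000031502, chr8:11198423-11312826) was at 29.6, 30.9 and 33.4 CPM at baseline and at 127, 102 and 93.3 CPM with vehicle, and *Col4a2* (ENSMUSG00000031503, chr8:11312805-11449287) went from 16.4, 19.7 and 21.2 CPM to 56.6, 58.3 and 38.9 CPM. Neither pair of groups overlapped. The log2 fold changes were 1.78 (standard error 0.25, adjusted p = 7.56e-04) and 1.43 (standard error 0.19, adjusted p = 4.78e-04). The X-linked *Col4a5* was at 1.64, 3.45 and 2.71 CPM and then at 4.78, 4.20 and 2.99 CPM (0.62, standard error 0.34, adjusted p = 0.210). *Col4a3*, *Col4a4* and *Col4a6*, chains of specialised basement membranes, stayed at or under 1.22 CPM in every library, with log2 fold changes of 0.14, 1.02 and 1.68 that did not pass the test. Of the 6 type IV genes, 2 were called higher and none lower, and the median log2 fold change was 1.22.

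Type VI collagen, a microfilament around cells, was the class in which each tested chain rose (5 of 5, median log2 fold change 1.80). *Col6a1* went from 6.79, 9.83 and 5.61 CPM to 23.8, 25.0 and 16.5 CPM, *Col6a2* from 3.57, 5.50 and 2.74 CPM to 15.0, 14.5 and 9.26 CPM, and *Col6a3* from 5.37, 9.34 and 6.24 CPM to 25.6, 26.7 and 20.7 CPM. These 3 chains, which assemble into 1 monomer, rose by similar amounts, with log2 fold changes of 1.56 (standard error 0.41, adjusted p = 0.0245), 1.71 (standard error 0.39, adjusted p = 0.00952) and 1.80 (standard error 0.42, adjusted p = 0.0145). *Col6a6* rose from 0.411, 0.244 and 0.231 CPM to 3.18, 3.42 and 1.92 CPM (3.25, standard error 0.46, adjusted p = 5.99e-04). *Col6a5* was called on few reads, with 3, 7 and 1 at baseline and 35, 27 and 6 with vehicle (2.37, standard error 0.80, adjusted p = 0.0487), and 5 of the 9 fits with 1 library left out lost it (log2 fold changes 1.96 to 2.37, adjusted p = 0.0667 to 0.161). *Col6a1* lost its call without baseline replicate 1 (1.49, adjusted p = 0.0864), baseline replicate 3 (1.40, adjusted p = 0.0895), vehicle replicate 1 (1.49, adjusted p = 0.0693) or vehicle replicate 2 (1.45, adjusted p = 0.0652), and *Col6a3* without baseline replicate 1 (1.64, adjusted p = 0.0599) or 3 (1.73, adjusted p = 0.0623).

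The remaining types changed less. *Col12a1*, a FACIT that coats type I fibrils, rose from 3.03, 1.31 and 2.54 CPM to 6.61, 5.31 and 5.02 CPM (1.30, standard error 0.31, adjusted p = 0.0105). *Col20a1*, another FACIT, fell from 3.25, 2.99 and 2.14 CPM to 0.676, 0.985 and 1.99 CPM (-1.22, standard error 0.41, adjusted p = 0.0474), a call that was lost without any one of the 3 baseline libraries or vehicle replicate 1 or 2 (-0.92 to -1.37, adjusted p = 0.0645 to 0.170). The FACIT genes *Col14a1* and *Col16a1* did not pass. *Col14a1* was at 38.8, 40.7 and 31.6 CPM and then at 44.7, 40.4 and 26.8 CPM (0.01, standard error 0.25), and *Col16a1* at 2.31, 4.0 and 3.17 CPM and then at 5.13, 4.98 and 3.54 CPM (0.53, standard error 0.27, adjusted p = 0.174). *Col18a1*, the endostatin precursor and the most abundant collagen transcript in each group, was at 881, 960.2 and 1068 CPM at baseline and at 766, 875 and 543 CPM with vehicle. The 3 vehicle libraries lay below the baseline ones, with vehicle replicate 3 lowest, and the difference did not pass (-0.41, standard error 0.19, adjusted p = 0.136). Its relative *Col15a1* was at 10.1, 12.2 and 12.0 CPM and then at 14.2, 16.8 and 11.0 CPM (0.29, standard error 0.20, adjusted p = 0.306). *Col8a1*, a short-chain network collagen, was at 0.537, 0.641 and 0.627 CPM and then at 1.98, 1.11 and 1.29 CPM (1.28, standard error 0.50, adjusted p = 0.0833), and it passed without NSC replicate 1 (adjusted p = 0.0252) or 2 (adjusted p = 0.0325). The transmembrane *Col13a1* was at 3.44, 3.88 and 2.80 CPM and then at 3.08, 3.47 and 1.92 CPM (-0.25, standard error 0.31, adjusted p = 0.595). *Col7a1*, *Col8a2* and *Col25a1*, at no more than 1.56 CPM in any library, did not pass either (-0.54, 1.70 and -0.68). Over the 16 tested genes of other types, 6 were called higher and 1 lower, and the median log2 fold change was 0.90 (0.29 with all genes of at least 1 count tested).

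**Figure D2:**
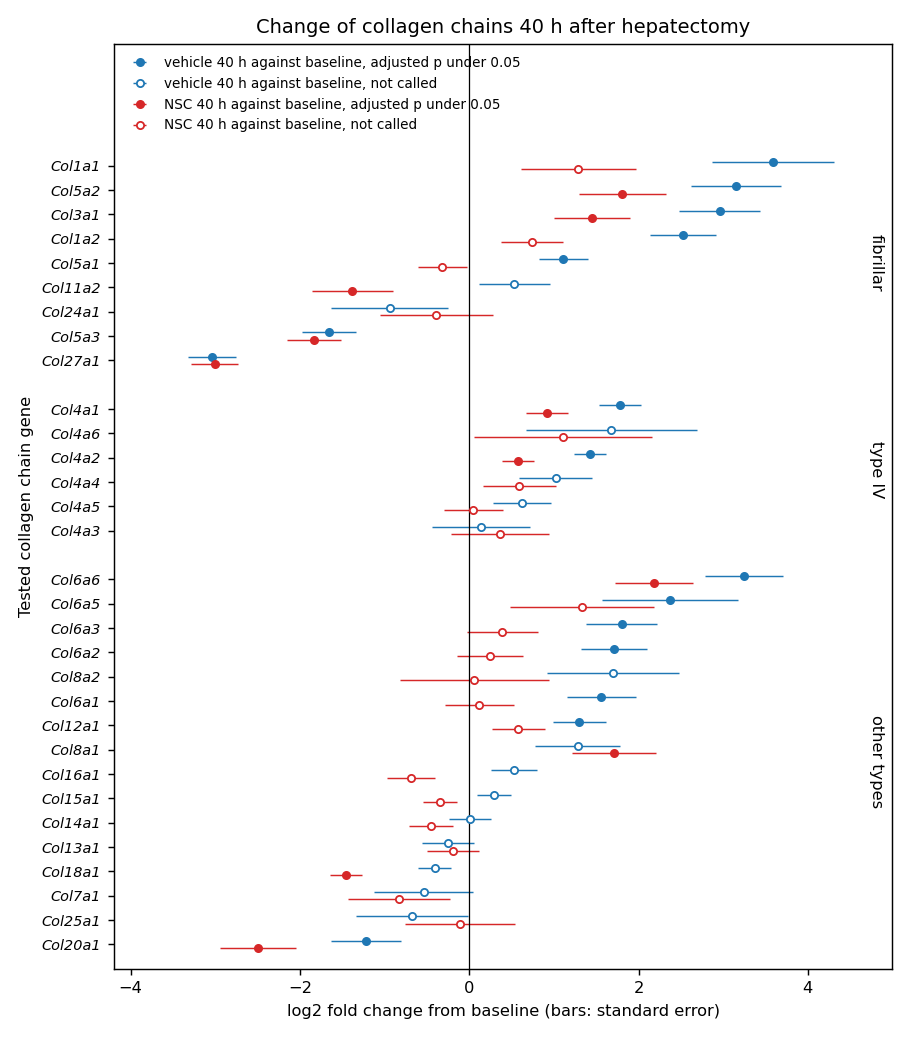
Log2 fold change from baseline (horizontal axis, bars are standard errors) of the 31 tested collagen chain genes (vertical axis, by class) in vehicle (blue) and NSC (red) remnants, with filled points at an adjusted p under 0.05. The filled blue points are 13 chains above 0 and 3 below it, and the filled red points are 6 above and 5 below, with *Col27a1* at -3.04 and -3.01 in the 2 groups.

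In NSC-treated mice, type IV, fibrillar and type VI chains were among those called higher, and *Col18a1* was called lower. Of the 31 tested genes, 6 were called higher than baseline (18.2% of all tested genes were) and 5 lower (16.5% of all tested genes), and the median log2 fold change was 0.12 (0.01 over all tested genes). Both shares of the collagen genes are near those of all genes. The 6 higher genes were *Col4a1*, *Col4a2*, *Col3a1*, *Col5a2*, *Col6a6* and *Col8a1*, and the 5 lower were *Col27a1*, *Col5a3*, *Col11a2*, *Col18a1* and *Col20a1*. By class the calls were 2 higher and 3 lower among fibrillar genes (median log2 fold change -0.32), 2 higher among type IV genes (0.59), and 2 higher and 2 lower among other types (-0.03). The fibrillar median turned sign, to 0.75 with at least 10 counts in each library and to 0.10 when baseline replicate 1 was omitted, and that of other types turned to 0.11 with scaling by library size only and 0.13 when NSC replicate 3 was omitted. The lower calls held better than the higher ones when 1 library was left out: 4 of the 5 lower but 1 of the 6 higher (*Col6a6*) were made in each of the 9 such fits. Higher calls numbered 1, 3 and 2 when baseline replicate 1, 2 or 3 was omitted (13.7%, 14.8% and 12.0% of all tested genes). With NSC replicate 1 omitted there were 4 higher and 6 lower calls (17.8% and 15.9% of all tested genes), and the median was -0.31. A log2 fold change beyond 1.5 left 3 higher and 3 lower (5.38% and 2.75%), and a filter of at least 10 counts in each library left 3 lower (17.9%). All NSC libraries lay above the baseline libraries in 6 of the 31 genes (24.0% of all tested genes) and below them in 6 (23.1%).

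The NSC libraries of *Col3a1* held 100.3, 32.3 and 36.5 CPM, each above the baseline libraries, with NSC replicate 1 far above the other pair. The log2 fold change was 1.45 (standard error 0.45, adjusted p = 0.0380), and the call was lost without any 1 of the baseline libraries (1.28 to 1.63, adjusted p = 0.0681 to 0.110) or without vehicle replicate 1 (adjusted p = 0.0517) or 2 (adjusted p = 0.0576). Without NSC replicate 1 the log2 fold change was 0.74 (adjusted p = 0.0406). *Col5a2* was at 17.4, 7.33 and 3.68 CPM (1.81, standard error 0.51, adjusted p = 0.0252) and was not called without any 1 of the baseline libraries (1.65 to 1.94, adjusted p = 0.0650 to 0.0832), and without NSC replicate 1 it stood at 1.03 (adjusted p = 0.0223). *Col4a1* was at 86.5, 52.2 and 38.9 CPM and *Col4a2* at 34.7, 25.6 and 25.1 CPM, all above baseline. Their log2 fold changes were 0.92 (standard error 0.25, adjusted p = 0.0141) and 0.58 (standard error 0.19, adjusted p = 0.0342). *Col4a1* missed the threshold without baseline replicate 1 (0.88, adjusted p = 0.0503), and *Col4a2* without any 1 of the baseline libraries (0.48 to 0.66, adjusted p = 0.0537 to 0.126) or NSC replicate 1 (0.41, adjusted p = 0.104). *Col6a6* was at 1.05, 2.17 and 0.822 CPM (2.18, standard error 0.46, adjusted p = 0.00392). *Col8a1* was at 3.45, 0.713 and 1.72 CPM (1.71, standard error 0.50, adjusted p = 0.0200) and was not called without baseline replicate 1 (1.63, adjusted p = 0.0649), baseline replicate 3 (1.74, adjusted p = 0.0586) or NSC replicate 1 (1.00, adjusted p = 0.0966).

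*Col18a1* fell with NSC, to 368, 347 and 341 CPM, 3 libraries that lay close together and below each baseline and vehicle library. The log2 fold change from baseline was -1.46 (standard error 0.19, adjusted p = 2.83e-04), a 2.76-fold fall. *Col27a1* was at 8.82, 9.64 and 13.0 CPM (-3.01, standard error 0.28, adjusted p = 4.89e-05) and *Col5a3* at 19.7, 28.3 and 39.9 CPM (-1.83, standard error 0.32, adjusted p = 0.00219), within the range of the vehicle remnants or near it. *Col20a1* fell to 0.510, 0.306 and 0.665 CPM (-2.50, standard error 0.45, adjusted p = 0.00149). *Col11a2* was at 0.210, 0.374 and 0.274 CPM, below baseline in each library (-1.38, standard error 0.48, adjusted p = 0.0416). That call rested on few reads and was lost in 6 of the 9 fits with 1 library left out, those without baseline replicate 1 (-0.99, adjusted p = 0.174) or 2 (-1.48, adjusted p = 0.0586), vehicle replicate 1 (-1.38, adjusted p = 0.0572), or NSC replicate 1 (-1.19, adjusted p = 0.106), 2 (-1.62, adjusted p = 0.0575) or 3 (-1.36, adjusted p = 0.0842).

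Of the 13 chains that rose with vehicle, 5 were also called with NSC, and over the 13 the median log2 fold change was 1.80 in the vehicle remnants against 0.74 in the NSC remnants. Both values use the same baseline libraries, and the 13 were chosen for their rise with vehicle. The share of all genes called higher with vehicle that were also called with NSC was not computed, so the count of 5 is descriptive. The 8 not called with NSC were *Col1a1*, *Col1a2*, *Col5a1*, *Col12a1*, *Col6a1*, *Col6a2*, *Col6a3* and *Col6a5*. *Col1a1* had 17.2, 5.23 and 5.05 CPM with NSC (log2 fold change 1.29, standard error 0.68, adjusted p = 0.183), so that NSC replicates 2 and 3 lay within the baseline range and NSC replicate 1 above it. Without NSC replicate 1 its value was 0.45 (adjusted p = 0.619). *Col1a2*, at 22.7, 10.4 and 11.1 CPM (0.74, standard error 0.37, adjusted p = 0.156), had NSC replicate 1 above baseline and the other pair near the highest baseline library. *Col6a1* was at 13.7, 6.42 and 3.95 CPM (0.12), *Col6a2* at 7.50, 3.84 and 2.58 CPM (0.24) and *Col6a3* at 16.2, 6.42 and 4.74 CPM (0.39), with adjusted p between 0.503 and 0.845. Without NSC replicate 1 these 3 values were -0.51, -0.29 and -0.32 (adjusted p = 0.197, 0.522 and 0.330). *Col5a1* was at 8.49, 4.58 and 3.99 CPM (-0.32, standard error 0.29, adjusted p = 0.422), and without NSC replicate 1 it was called lower than baseline (-0.73, adjusted p = 0.0338). *Col12a1* was at 4.23, 3.40 and 2.66 CPM (0.58, adjusted p = 0.167) and *Col6a5* at 0.480, 0.340 and 0.0391 CPM (1.33, adjusted p = 0.247, and 0.74 without NSC replicate 1). Of the chains not called with vehicle or NSC, *Col14a1* was with NSC at 38.3, 23.8 and 19.2 CPM (-0.45, adjusted p = 0.196), *Col15a1* at 10.2, 9.64 and 7.04 CPM (-0.35, adjusted p = 0.192), *Col16a1* at 2.25, 1.94 and 1.68 CPM (-0.69, adjusted p = 0.0725), *Col13a1* at 4.14, 2.28 and 2.47 CPM (-0.19, adjusted p = 0.670) and *Col4a5* at 3.51, 2.89 and 1.64 CPM (0.05, adjusted p = 0.926). *Col14a1* passed as lower without NSC replicate 1 (-0.78, adjusted p = 0.0134) and *Col16a1* without baseline replicate 1 (-0.87, adjusted p = 0.0443).

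The direct comparison of NSC with vehicle remnants at 40 h tests the difference itself. No collagen gene passed an adjusted p of 0.05 in the edgeR quasi-likelihood test, in which 6 of the 15024 tested genes (0.0399%) did. At an unadjusted p under 0.05, 17 of the 31 collagen genes were lower with NSC and none higher (10.2% and 9.30% of all tested genes), and DESeq2 called 13 lower (2.86% of all tested genes) and edgeR's exact test 11 lower (1.35%). With all genes of at least 1 count kept, 4 were called lower (0.629%). A fit of the NSC and vehicle libraries alone called 0, as did a fit with the replicate number as a block. The estimate was below 0 for 25 of the 31, with a median log2 fold change of -0.86 against 0.02 over all tested genes. The 3 NSC libraries lay below the 3 vehicle libraries in 16 of the 31 (12.2% of all tested genes) and above them in none (10.3% of all tested genes). An exact permutation test of 3 against 3 cannot give a 2-sided p below 0.1. By class, the medians were -1.43 for fibrillar genes, -0.57 for type IV genes and -1.05 for other types.

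The largest estimate was that of *Col1a1*, 4.93-fold lower with NSC (log2 fold change -2.30, standard error 0.67, adjusted p = 0.147). The other type I and III chains were *Col1a2* at -1.78 (standard error 0.37, adjusted p = 0.0849) and *Col3a1* at -1.51 (standard error 0.45, adjusted p = 0.143). In all 3 genes each NSC library was below each vehicle library, NSC replicate 1 included. The type V chains were *Col5a1* at -1.43 (standard error 0.29, adjusted p = 0.0849), *Col5a2* at -1.34 (standard error 0.48, adjusted p = 0.191) and *Col5a3* at -0.17 (standard error 0.31, adjusted p = 0.804). *Col4a1* and *Col4a2* were at -0.86 (standard error 0.25, adjusted p = 0.118) and -0.85 (standard error 0.19, adjusted p = 0.0849). The type VI monomer chains *Col6a1*, *Col6a2* and *Col6a3* were at -1.44, -1.47 and -1.41 (adjusted p = 0.131, 0.102 and 0.134), and *Col6a5* and *Col6a6* at -1.04 and -1.07, where the groups overlapped. *Col18a1*, with the smallest adjusted p of the collagen genes (0.0847), was at -1.05 (standard error 0.19), and *Col15a1* at -0.64 (adjusted p = 0.132). Among FACIT genes the values were -1.22 for *Col16a1* (adjusted p = 0.0849), -1.28 for *Col20a1* (adjusted p = 0.164), -0.72 for *Col12a1* (adjusted p = 0.225) and -0.46 for *Col14a1* (adjusted p = 0.340). *Col11a2* was at -1.91 (standard error 0.47, adjusted p = 0.0907), and the exact test (-1.92, adjusted p = 0.0175) and DESeq2 (-1.91, adjusted p = 0.0197) called it lower. *Col27a1* (0.03, standard error 0.26), *Col13a1* (0.07, standard error 0.31) and *Col8a1* (0.43, standard error 0.47) were near 0 or above it, and *Col4a5* was at -0.57 (standard error 0.34, adjusted p = 0.370).

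**Figure D3:**
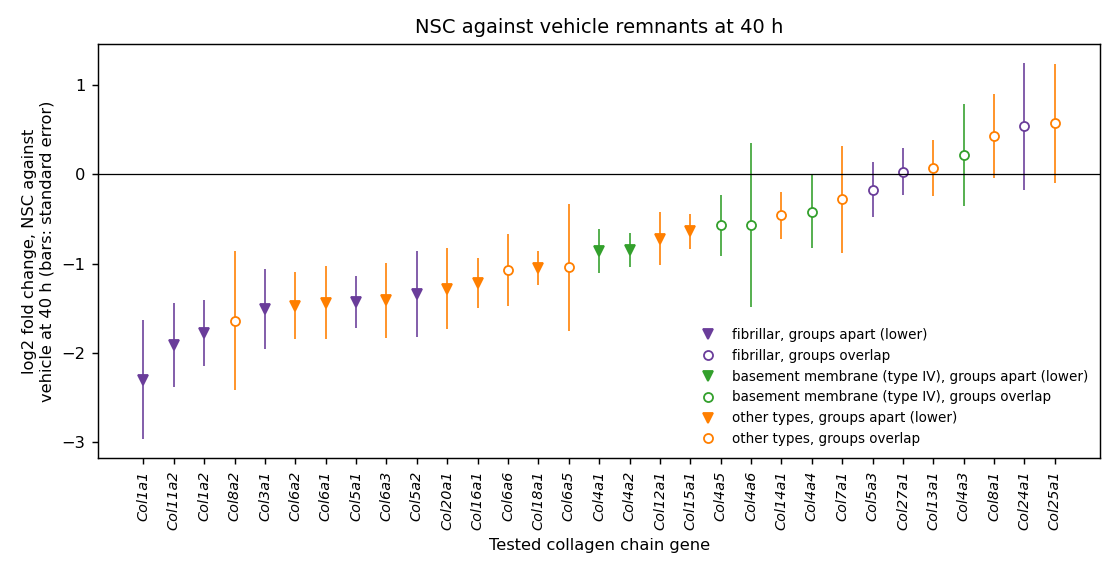
Log2 fold change of NSC against vehicle remnants at 40 h (vertical axis, bars are standard errors) for the 31 tested collagen chain genes in order of size (horizontal axis), coloured by class. Filled triangles mark the 16 genes whose 3 NSC libraries all lie below the 3 vehicle libraries, from *Col1a1* at -2.30 to *Col15a1* at -0.64, and no gene passed an adjusted p of 0.05.

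The calls in this comparison depended on the test, the filter and the libraries. Without NSC replicate 1, 13 collagen genes were called lower with NSC (2.73% of all tested genes) and none higher (3.73%), the lower ones including *Col1a1* (-3.14, adjusted p = 0.0472), *Col3a1* (-2.22, adjusted p = 0.00141), *Col5a1* (-1.85, adjusted p = 0.00134), *Col5a2* (-2.13, adjusted p = 0.00330), *Col6a1* (-2.07, adjusted p = 0.00302), *Col6a3* (-2.13, adjusted p = 6.46e-04), *Col4a1* (-1.24, adjusted p = 0.00206) and *Col18a1* (-1.09, adjusted p = 0.0130). Leaving out vehicle replicate 3 gave 4 lower (0.608% of all tested genes, here *Col4a2*, *Col1a2*, *Col5a1* and *Col18a1*), and leaving out any other library gave 0. DESeq2, the exact test and the fit without NSC replicate 1 shared 10 calls: *Col16a1*, *Col18a1*, *Col1a1*, *Col1a2*, *Col3a1*, *Col4a2*, *Col5a1*, *Col6a1*, *Col6a2* and *Col6a3*. These settings reuse the same libraries, so shared calls are not independent evidence. The share of all genes called by each of them together was not computed. Over the 13 chains that rose with vehicle, NSC replicate 1 was the highest NSC library in 12 (the exception was *Col6a6*), yet it lay below the 3 vehicle libraries in 12 (the exception was *Col6a5*). NSC replicates 2 and 3 both lay below the 3 vehicle libraries in 11 of the 13, the exceptions being *Col6a5* and *Col6a6*. Vehicle replicate 3 was the lowest vehicle library in all 13. The 13 were chosen for their rise with vehicle, which favours NSC libraries lying below vehicle ones. These counts are therefore descriptive, and their shares over all genes were not computed.

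The make-up of the collagen transcript pool was compared per length, as CPM per kb of the gene length in the deposited table, which counts the exons of every transcript of a gene. These groupings were chosen after the values were seen, and no test was run on them. *Col18a1* made up 73.7% to 75.4% of the summed level of the 44 genes at baseline, 53.3% to 58.9% with vehicle and 48.8% to 61.5% with NSC. The whole sum was 170.3 to 202 CPM per kb at baseline, 137 to 212 with vehicle and 78.9 to 107 with NSC, so the NSC libraries were below all others. Of what remained without *Col18a1*, the type I and III chains *Col1a1*, *Col1a2* and *Col3a1* made up 5.24% to 9.57% at baseline and 29.8% to 35.7% with vehicle. With NSC they made up 26.7%, 15.2% and 17.8% in replicates 1 to 3, between the other groups. *Col5a3* and *Col27a1* together held 39.2% to 51.2% at baseline, 6.36% to 7.40% with vehicle, and 6.48%, 15.1% and 22.6% in NSC replicates 1 to 3. *Col4a1* and *Col4a2* held 15.2% to 16.3% at baseline, 27.4% to 32.5% with vehicle and 31.3% to 35.5% with NSC.

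Ratios between partner chains also moved. *Col5a1* exceeded *Col5a2* per length by 2.64 to 3.61 times at baseline, and the ratio was 0.608 to 0.872 with vehicle and 0.550 to 1.23 with NSC, so the order of the chains turned in all vehicle libraries and in NSC replicates 1 and 2. The ratio of *Col1a1* to *Col1a2* was 0.358 to 0.993 at baseline, 1.61 to 1.69 with vehicle, and 1.40, 0.928 and 0.843 in NSC replicates 1 to 3. By contrast, the ratio of *Col6a1* to *Col6a2* was 3.40 to 3.89, 3.02 to 3.39 and 2.91 to 3.47 in the 3 groups. *Col4a1* to *Col4a2* stood at 1.52 to 1.75, 1.70 to 2.33 and 1.5 to 2.42. The ratios of the type VI and type IV partners thus moved less than those of the type I and type V partners.

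**Figure D4:**
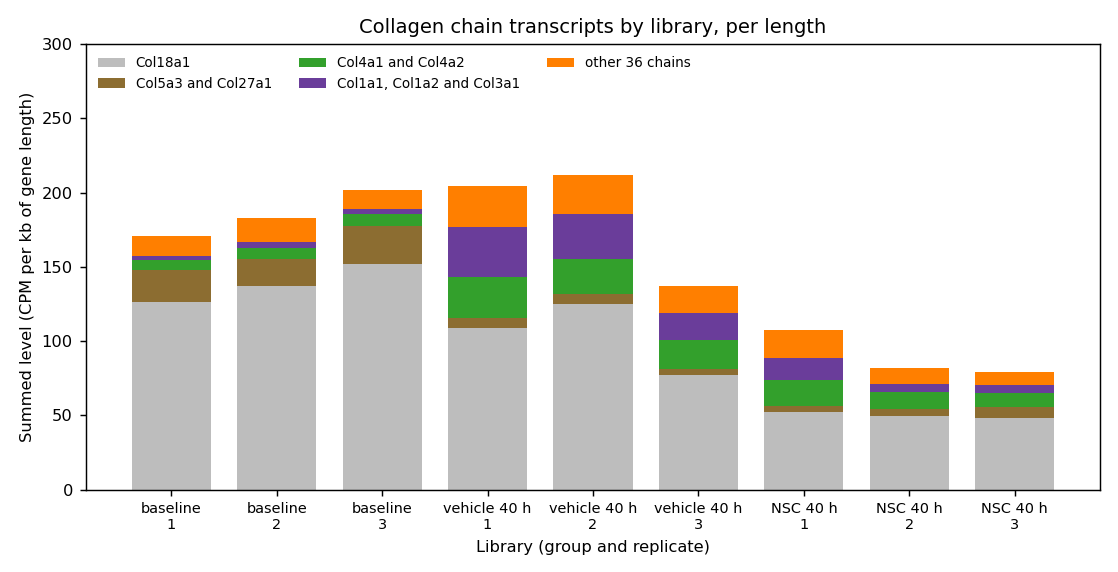
Summed level of the 44 collagen chain genes in CPM per kb of gene length (vertical axis, linear from 0) in each of the 9 libraries (horizontal axis), stacked by chain group. *Col18a1* (grey) fills 73.7% to 75.4% of each baseline bar, *Col5a3* and *Col27a1* (brown) shrink in all remnants, and *Col1a1*, *Col1a2* and *Col3a1* (purple) reach 17.9 to 34.1 CPM per kb with vehicle and 4.95 to 14.7 with NSC.

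Genes that fold, modify, process, crosslink, bind or degrade collagen were followed as a list of 48, of which 43 were tested. With vehicle, 20 were called higher than baseline and none lower (12.7% and 11.0% of all tested genes), and the median log2 fold change was 0.80. With NSC, 13 were called higher and 2 lower (18.2% and 16.5% of all tested genes), with a median of 0.54. In the direct comparison none was called (0.0399% of all tested genes in the edgeR quasi-likelihood test), and the median was -0.57. At an unadjusted p under 0.05 in that test, 1 was higher and 16 were lower (9.30% and 10.2% of all tested genes).

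Of 6 tested chaperone and trafficking genes, 4 were called higher with vehicle, and 2 were called higher and 1 (*Mia3*, a procollagen export factor, -0.75, adjusted p = 0.00654) lower with NSC. *Serpinh1*, the collagen chaperone HSP47, was at 7.90, 9.59 and 8.22 CPM at baseline, 42.2, 31.6 and 46.5 CPM with vehicle, and 22.8, 12.3 and 17.8 CPM with NSC. The 3 groups did not overlap, and the log2 fold changes from baseline were 2.23 (adjusted p = 9.04e-05) and 1.04 (adjusted p = 0.00396), with a direct difference of -1.18 (standard error 0.22, adjusted p = 0.0847). *Fkbp10*, a prolyl isomerase for procollagen, rose in both (log2 fold change 2.50 and 1.21, adjusted p = 6.80e-04 and 0.0228). Of 6 tested prolyl hydroxylase genes, 3 were called higher with vehicle and none with NSC (edgeR quasi-likelihood test, 2 higher at an unadjusted p under 0.05). Among them, *Lepre1*, which encodes prolyl 3-hydroxylase 1, was at 14.7, 10.9 and 15.9 CPM, then 40.3, 30.4 and 30.2 CPM with vehicle (1.28, adjusted p = 5.22e-04) and 17.8, 19.7 and 19.6 CPM with NSC (0.46, adjusted p = 0.0585). *P4ha1*, a prolyl 4-hydroxylase subunit, rose with vehicle (1.23, adjusted p = 0.0124) and was at 0.78 with NSC (adjusted p = 0.0600). *Plod2*, the lysyl hydroxylase of collagen telopeptides, rose in both (2.82 and 1.95, adjusted p = 0.00230 and 0.0104) and was the 1 gene called of 5 that modify lysine. Without NSC replicate 1 its NSC value was 1.20 (adjusted p = 0.0314).

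Of the genes of later steps, 3 of 6 tested for propeptide removal and 3 of 5 for crosslinking were called higher with vehicle, and 2 of each with NSC. *Bmp1*, a procollagen C-proteinase, was called lower with NSC (-1.11, adjusted p = 6.07e-04) and stood at -0.45 with vehicle (adjusted p = 0.0692). *Lox*, lysyl oxidase, was at 0.126, 0.122 and 0.198 CPM at baseline, 3.53, 2.75 and 3.21 CPM with vehicle, and 3.63, 0.815 and 0.352 CPM with NSC. Its log2 fold change was 4.38 in vehicle remnants (adjusted p = 0.00355) and 3.42 in NSC remnants (adjusted p = 0.00839), and NSC replicate 1 sat just above the vehicle libraries and NSC replicates 2 and 3 below them. Without NSC replicate 1 its NSC value was 1.97 (adjusted p = 0.00773). *Loxl1* rose with vehicle (1.98, adjusted p = 0.00352) and was at 0.80 with NSC (adjusted p = 0.132). *Pcolce*, the enhancer of procollagen C-proteinase, rose in both (1.52 and 0.75, adjusted p = 4.08e-04 and 0.0128), and *Adamts3*, a procollagen N-proteinase, with vehicle (1.80, adjusted p = 0.0417). The fibril-binding proteoglycan gene *Lum* was at 5.40, 6.05 and 3.27 CPM at baseline, 18.6, 16.2 and 20.9 CPM with vehicle and 29.4, 14.5 and 17.1 CPM with NSC. In contrast to the fibrillar chains its rise was of like size in both (1.92 and 2.05, adjusted p = 0.00107 and 5.04e-04), with a direct difference of 0.13 (standard error 0.28). *Bgn* rose with vehicle (0.63, adjusted p = 0.0455) and was at 0.12 with NSC.

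Collagen receptors and degrading enzymes split. The receptor kinase gene *Ddr1* rose in both (1.86 and 1.09, adjusted p = 9.62e-04 and 0.0119). *Itgb1*, the β1 integrin subunit, was called with NSC (0.64, adjusted p = 0.00905) and stood at 0.38 with vehicle (adjusted p = 0.10). *Mmp2*, a gelatinase, rose with vehicle to 5.96, 7.28 and 3.25 CPM from 2.05, 2.90 and 2.08 CPM (1.23, adjusted p = 0.0117) and was at 2.88, 2.75 and 2.47 CPM with NSC (0.20, adjusted p = 0.634). *Mmp8*, the neutrophil collagenase, stayed at or under 1.29 CPM and rose in both (2.64 and 3.26, adjusted p = 0.0247 and 0.00559).

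Marker genes of the cell types that make collagen were summed per library, and their part in the collagen results was not tested. The 12 hepatic stellate cell genes, led by *Ecm1* and *Reln*, summed to 243 to 248 CPM at baseline, 201 to 284 CPM with vehicle and 164 to 241 CPM with NSC, with 5 called higher and 1 lower with vehicle and 3 higher and 2 lower with NSC. Over all tested genes these shares were 12.7% and 11.0% with vehicle and 18.2% and 16.5% with NSC, which are the background for each list that follows. *Ecm1* carried much of the stellate sum and fell in both (-0.94 and -1.55, adjusted p = 0.00414 and 1.82e-04), while *Hgf*, *Pdgfra*, *Pdgfrb*, *Des* and *Rgs5* were the 5 called higher with vehicle (0.71 to 1.73). The 5 myofibroblast genes (*Tagln* and *Postn* highest) summed to 15.3 to 19.5, 28.9 to 55.9 and 18.5 to 67.9 CPM, and 1 was called higher with vehicle and none with NSC. NSC replicate 1 had the 67.9 CPM, above each vehicle library. The 6 portal fibroblast genes (*Fbln2* and *Cd34* highest) summed to 8.24 to 8.88, 15.7 to 21.2 and 7.40 to 16.3 CPM, with 3 called higher with vehicle and none with NSC. The 5 mesothelial genes, led by *Msln* and *Upk3b*, summed to 2.75 to 4.78 CPM at baseline and 23.7 to 26.6 CPM with vehicle, and to 21.8, 14.4 and 2.00 CPM in NSC replicates 1 to 3, with 3 called higher with vehicle and 2 with NSC. NSC replicate 1, highest NSC library in 12 of the 13 risen collagen chains, had the highest NSC sum of each of these lists. It also had the highest NSC sums of endothelial (244 CPM) and of Kupffer cell and macrophage genes (401 CPM). Its cholangiocyte sum (83.0 CPM) lay between those of NSC replicates 3 (79.1 CPM) and 2 (122 CPM). It had the lowest NSC sums of hepatocyte (100916 CPM) and exocrine pancreas genes (8.61 CPM). What this order of the libraries reflects was not tested. Among vehicle libraries, replicate 3, lowest in those 13 chains, had the lowest stellate and portal fibroblast sums and the highest mesothelial sum.

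The 7 endothelial genes (*Clec4g* and *Stab2* highest) summed to 180.5 to 188, 116 to 186 and 137 to 244 CPM, and 1 was called lower with vehicle. The 7 Kupffer cell and macrophage genes, led by *Cd5l* and *Clec4f*, summed to 164 to 238, 143 to 240.4 and 273 to 401 CPM, with 3 called higher with NSC and none with vehicle. The 6 cholangiocyte genes (*Spp1* and *Sox9* highest) summed to 37.8 to 40.7, 76.0 to 115 and 79.1 to 122 CPM, with 4 called higher with vehicle and 3 with NSC. *Spp1* carried most of that sum. *Krt7* was at 0.600, 0.458 and 0.759 CPM at baseline, 4.28, 3.71 and 4.43 CPM with vehicle and 3.45, 1.97 and 0.626 CPM with NSC (2.77 and 1.75, adjusted p = 0.00242 and 0.0174). *Krt19*, which is in both the cholangiocyte and the mesothelial list, was at 0.948, 0.702 and 1.15 CPM, then 4.13, 4.07 and 3.58 CPM and 2.52, 1.90 and 1.13 CPM (2.07 and 0.99, adjusted p = 0.00113 and 0.0350). Both keratin genes thus had NSC replicate 1 as the highest NSC library, below all 3 vehicle libraries. Both, named after their values were seen, were lower with NSC than with vehicle by estimate (-1.02 and -1.08, adjusted p = 0.237 and 0.119). The list did not move together, since *Sox9* was at -0.46, *Spp1* at 0.20 and *Epcam* at 0.18 in that comparison. NSC replicate 1 was not the highest NSC library in *Sox9*, *Spp1* or *Epcam*. Among the 7 hepatocyte genes, none was called with vehicle and 1 was called lower with NSC. Of 6 exocrine pancreas genes, *Prss2*, *Cpa1* and *Pnlip* had no read in any library, and the sums, led by *Cela1* and *Cela2a*, were 14.7 to 20.9, 9.53 to 14.4 and 8.61 to 17.9 CPM with none called. In the direct comparison of NSC with vehicle no gene of these 9 lists passed an adjusted p of 0.05 in the edgeR quasi-likelihood test. At an unadjusted p under 0.05 in that test, 9.30% of all tested genes were higher and 10.2% lower. By that rule 5 Kupffer cell and macrophage and 3 endothelial genes were higher and none lower. Lower were 4 stellate, 2 portal fibroblast, 2 cholangiocyte, 1 mesothelial, 1 hepatocyte and 1 exocrine pancreas gene, and none of these lists had a higher one. No myofibroblast gene passed.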

How the data were processed

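RNA from 9 mouse livers in 3 groups of 3 was sequenced from poly(A)-selected, strand-specific libraries. The authors processed the paired-end reads with MAP-RSeq version 3.1.4, aligned them with STAR 2.6.1, counted them on genes with Subread 1.5.1 (featureCounts) and deposited raw read counts per gene without pooling. The authors also deposited FPKM values. Computing FPKM from the counts, the total per library and the length plus 1 base returned them with a relative difference of at most 4.96e-10, and they were not used further. The strand setting of the counting is not given in the sources used here. The submitters' notes name hg38, but identifiers and coordinates are mouse ones: the chromosome, start and end of 33460 of the 43346 listed genes, and of 41 of the 44 collagen genes, equal GENCODE M21 (GRCm38).

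Counts were scaled by TMM, filtered with filterByExpr and fitted in 1 robust quasi-likelihood fit of all 9 libraries (edgeR 4.0.16, R 4.3.3), with group as the only term, for 3 comparisons. The study names edgeR and a false discovery rate of 5%, which gave the adjusted p of 0.05 used here, but not the test. A log2 fold change over 1.5 was kept as an alternative, as were the replicate number as a block, RLE factors, library size only, filters of at least 1 count in all or 10 counts in each library, a fit of the 2 compared groups alone, DESeq2 1.42.0, edgeR's exact test and each of the 9 libraries left out in turn. Python 3.11.15 (pandas 2.3.3, matplotlib 3.10.9) was used for summaries and figures. The fit was tested on simulated data with 200 changed genes.

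The collagen genes and the lists of classes, biosynthesis genes and markers were chosen with earlier results of these data known. Every collagen gene called in any comparison, or with a mean of at least 1 CPM over the 9 libraries, is given with the value of each library (24 genes), 7 other tested genes by range, and 13 untested ones by name. Of the biosynthesis list, up to 2 called genes per role with the largest absolute log2 fold change are named, and of each marker list the 2 genes with the highest mean CPM. Precision is set by 3 libraries per group and by depths of 23997363 to 42887589 reads.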

Additional observations from a re-analysis of the deposited data

Results flagged for a closer look

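In 2 collagen genes every vehicle library at 40 h lay above the baseline mean and every NSC library below it. The share of all tested genes with this pattern was not computed. In both genes the vehicle and baseline libraries overlapped, and the vehicle group was not called against baseline. The log2 fold change was 0.53 in each (edgeR quasi-likelihood adjusted p = 0.394 for *Col11a2* and 0.174 for *Col16a1*). *Col11a2* was at 0.747 ± 0.319 CPM at baseline (SD, n = 3), at 1.08 ± 0.419 CPM with vehicle and at 0.286 ± 0.0824 CPM with NSC. The difference between the remnant groups was -1.91 on the log2 scale (standard error 0.47, edgeR quasi-likelihood adjusted p = 0.0907), which did not pass the threshold, while edgeR's exact test (adjusted p = 0.0175) and DESeq2 (adjusted p = 0.0197) called it lower. *Col16a1* was at 3.16 ± 0.847 CPM at baseline (SD, n = 3), at 4.55 ± 0.875 CPM with vehicle and at 1.96 ± 0.284 CPM with NSC. Its difference was -1.22 (standard error 0.28, edgeR quasi-likelihood adjusted p = 0.0849), which did not pass either, while the exact test (adjusted p = 0.0163) and DESeq2 (adjusted p = 0.00530) called it lower. Both remnant groups were set against the same 3 baseline libraries, and the cause of the pattern was not tested.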

How the results depend on the processing

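With 3 libraries per group and 1 time point, small changes of chains under 1 CPM could not be measured. Of the named collagen values under other settings, 370 of 402 with vehicle, 362 of 402 with NSC and 351 of 404 in the direct comparison kept their direction and side of the threshold. The median with vehicle was 0.62 with all genes of at least 1 count. The calls with NSC were 3 higher and 3 lower past a log2 fold change of 1.5, and 3 lower with at least 10 counts in every library. Calls lower with NSC than with vehicle numbered 4 with at least 1 count, 11 by the exact test and 13 by DESeq2. They numbered 0 in a fit of these 2 groups alone. With 1 library left out, the calls with vehicle were 9 to 14 higher and 2 to 3 lower (median 0.98 to 1.17), those with NSC 1 to 6 higher and 4 to 6 lower (median -0.31 to 0.44), and those of NSC against vehicle 0 to 13 lower and 0 higher (median -1.05 to -0.63). Directions turned for values that had not passed the test, and the cause was not tested. *Col14a1* with vehicle was -0.01 with RLE factors, -0.02 with the replicate block and -0.01 by DESeq2, and -0.14 to 0.20 with a library left out. With NSC and a library left out, *Col4a5* was -0.20 to 0.31, *Col6a1* -0.51 to 0.44, *Col6a2* -0.29 to 0.56 and *Col6a3* -0.32 to 0.70. In the direct comparison with a library left out, *Col27a1* was -0.15 to 0.45, *Col5a3* -0.46 to 0.05, *Col13a1* -0.26 to 0.24 and *Col8a1* -0.28 to 0.82. No label says that a replicate number marks a shared mouse. For that reason the samples were not treated as paired in the main fit. Correlations of same-numbered libraries were -0.05 to 0.13 (8 of 9 above 0, others -0.12 to 0.07, 13 of 18 best with their own number). These small values lean towards same-numbered libraries being alike, and what links them was not tested. With the replicate number as a block, 13 genes were called higher and 3 lower with vehicle, 4 higher and 6 lower with NSC, and 0 in the direct comparison (median -0.99). The shares of all genes called in that fit were not computed, so its counts only show how the collagen calls shifted. *Col3a1* (1.28, adjusted p = 0.0789) and *Col5a2* (1.59, adjusted p = 0.0502) then lost their NSC calls, and *Col14a1* gained a lower one (-0.50, adjusted p = 0.0399).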
